A study of Mus musculus with 4 samples.

Results

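CTCF and RAD21 were compared site by site in E12.5 whole limbs of TgN(38-40) embryos, using the peak lists called on mm10. All 4 lists came from B6CBAF1 embryos that combine 1 copy of the insertion, TgN(38-40)/Wt, with del(CS38-40)-/-. They therefore share the transgene, which was inserted at random by pronuclear injection and is 1 line, and the homozygous deletion of the endogenous region. There is no group without these alleles here, so nothing below separates a transgene effect from a property of limb chromatin. Whole limbs mix mesenchyme, ectoderm, vessels and blood, and a peak list cannot tell in which of these cells a site was bound. Each antibody, an Active Motif antibody for CTCF or an Abcam antibody for RAD21, has 2 lists, 1 per biological replicate, made by ChIPmentation, in which adapters are inserted into chromatin still held on the beads. The members are the peaks on the 19 autosomes, 67671 of the 68982 peaks in these 4 lists. The CTCF lists hold 23433 autosomal peaks (replicate 1) and 25726 (replicate 2), and the RAD21 lists 4053 and 14459. The whole series, with the lists called on a custom genome that carries the transgene, holds 140051 peaks. Numbers of reads are unknown, and since the RAD21 lists differ most in length, shares are given for each of them, with means over the 4 pairs of a CTCF and a RAD21 list where stated.

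CTCF is a zinc finger protein that binds a long, asymmetric DNA motif. RAD21 is the subunit that closes the ring of cohesin, the complex that is thought to extrude chromatin loops until CTCF halts it. In that model the orientation of the motif matters, because cohesin is stopped when it arrives at 1 particular face of CTCF, and loops tend to join motifs that point toward each other. Not every CTCF site holds enough cohesin to be detected, and which sites do was the question asked of these lists. In the limb this matters for loci such as Shh and the Hox clusters, where distant enhancers act inside CTCF-bounded domains.

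The CTCF motif model was learned from 2000 strong peaks of CTCF replicate 2 and is 19 bp long. Its consensus is printed first, with capitals at the 8 positions where 1 base makes up at least 80% of the best-scoring matches that built the model. The strand shown is called plus, so that 3′ is to the right of the GGC. Below it stand strong CTCF sites without any RAD21 peak, strong sites with RAD21 in both replicates, and the weakest sites with RAD21 in both. The strong sites with RAD21 were picked after values were seen for having a motif, because the 3 strongest sites with RAD21 in both replicates have none. Sequences are GRCm38 (mm10), read 5′ to 3′ on the strand of the motif, with the 19 motif bases in capitals.
CTCF motif model: tggCCAccAGggGGCgcca
Sh3gl1 promoter, no RAD21, chr17:56036711-56036759, minus strand: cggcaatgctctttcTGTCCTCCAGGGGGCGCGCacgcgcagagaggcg
Dnajc11 promoter, no RAD21, chr4:151933626-151933674, plus strand: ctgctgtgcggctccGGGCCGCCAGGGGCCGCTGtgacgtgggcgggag
Upstream of Smug1, no RAD21, chr15:103182300-103182348, plus strand: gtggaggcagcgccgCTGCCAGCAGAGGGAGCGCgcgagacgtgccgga
Intron of Gm47882, RAD21 in both, chr13:13889641-13889689, plus strand: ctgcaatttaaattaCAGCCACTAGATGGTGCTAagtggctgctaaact
Near Enah, RAD21 in both, chr1:181888987-181889035, plus strand: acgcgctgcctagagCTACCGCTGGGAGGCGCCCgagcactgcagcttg
Intron of Ethe1, RAD21 in both, chr7:24601127-24601175, plus strand: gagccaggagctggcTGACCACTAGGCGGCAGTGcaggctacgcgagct
Near Tex50, weak CTCF, RAD21 in both, chr1:161170885-161170933, minus strand: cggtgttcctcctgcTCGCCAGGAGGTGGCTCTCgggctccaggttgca
Near Thnsl2, weak CTCF, RAD21 in both, chr6:71166924-71166972, plus strand: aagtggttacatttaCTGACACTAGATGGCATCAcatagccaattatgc
Near Kcnj3, weak CTCF, RAD21 in both, chr2:56114639-56114687, plus strand: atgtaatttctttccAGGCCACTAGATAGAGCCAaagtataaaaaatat

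A match to this model stood within 50 bp of the summit in 51.4% of the CTCF peaks of replicate 1 and 65.9% of those of replicate 2, with the score set so that 5% of flanking sequences pass. The labelled target of the antibody was thus recognisable in the peaks of both CTCF lists.

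The chance that a CTCF peak carried RAD21 rose steadily with CTCF strength. A CTCF peak was counted as carrying RAD21 when a RAD21 peak overlapped it by at least 1 bp. For all ranks together, 3758 of the 23433 CTCF peaks of replicate 1 carried a RAD21 peak of replicate 1 (16.0%) and 12215 carried one of replicate 2 (52.1%). Of the 25726 CTCF peaks of replicate 2, 3791 carried RAD21 replicate 1 (14.7%) and 12840 carried RAD21 replicate 2 (49.9%). When each CTCF list was cut into 10 deciles by its -log10 q-value, the significance that MACS2 gives a peak, the strongest decile of CTCF replicate 1 carried RAD21 replicate 2 at 75.1% of its 2344 peaks (95% Wilson interval 73.3 to 76.8%). The weakest decile carried it at 24.4% of 2343 peaks (22.7 to 26.1%). The corresponding shares in CTCF replicate 2 were 78.6% and 20.2%. With RAD21 replicate 1 the shares were lower at every rank but ran from 31.9% to 3.97% in CTCF replicate 1 and from 33.1% to 2.53% in CTCF replicate 2. In all 4 pairs of lists every decile was below the one before it. These intervals cover counting error only, and peaks are not replicates. No test across replicates was run, as each antibody has 2 lists, and values are given by pair of lists.

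**Figure D1:**
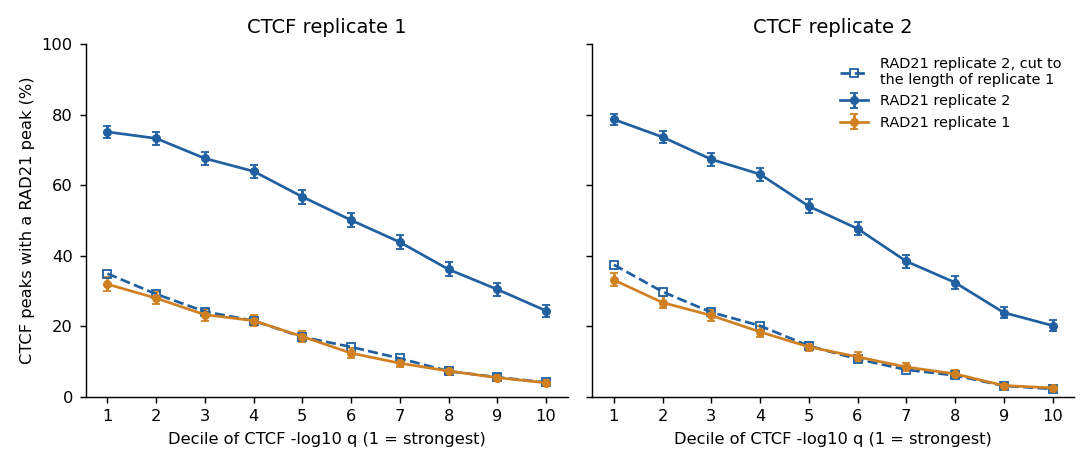
Share of CTCF peaks that carry a RAD21 peak (y axis, %) by decile of CTCF -log10 q (x axis, 1 = strongest), for CTCF replicate 1 (left) and 2 (right). Blue and orange circles are RAD21 replicates 2 and 1 with 95% Wilson intervals, and open squares are RAD21 replicate 2 cut to the 4053 strongest peaks; all 6 lines fall, and the squares run close to the orange circles.

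The 2 RAD21 replicates gave similar shares at equal list length. When RAD21 replicate 2 was cut to its 4053 strongest peaks, the length of replicate 1, the share in the strongest CTCF decile became 34.9% in CTCF replicate 1 and 37.4% in CTCF replicate 2. In the weakest decile it became 4.05% and 2.22%. Sites with RAD21 replicate 1 were largely nested in those of the full RAD21 replicate 2 list of 14459 peaks. In the other direction, 26.6% of RAD21 replicate 2 peaks overlapped a RAD21 replicate 1 peak. Nesting at equal list length was not computed. Of the CTCF peaks of replicate 1 that carried RAD21 replicate 1, 98.4% carried RAD21 replicate 2 as well, and in CTCF replicate 2 this was 98.6%. Of the CTCF peaks that no RAD21 replicate 2 peak overlapped, 3.38% in CTCF replicate 1 and 2.36% in CTCF replicate 2 had a RAD21 replicate 2 summit within 1 kb. The RAD21 replicate 1 values were 0.854% and 0.602%. Such low values were largely fixed in advance, because most RAD21 peaks already lay on CTCF peaks. These were 84.2% and 88.9% of RAD21 replicate 2 peaks and 93.0% and 93.8% of RAD21 replicate 1 peaks, for CTCF replicates 1 and 2. RAD21 below the peak threshold would not show here either.

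The rise with CTCF strength levelled off among the strongest peaks. Among the 100 strongest CTCF peaks of replicate 1, 74 carried RAD21 replicate 2, and the 1000 peaks that end at rank 2000 carried it at 76.6%. In CTCF replicate 2 these values were 80 of 100 and 80.1%. With RAD21 replicate 1 the top stayed ahead, with 41 of the 100 strongest peaks against 31.9% in CTCF replicate 1 and 38 against 33.1% in CTCF replicate 2. Some of the very strongest CTCF sites thus had no RAD21 peak, even in the longer list. Among peaks that carried both, the ranks of CTCF and RAD21 were only loosely related. Spearman's rho of -log10 q was 0.21 over 12215 peaks for CTCF replicate 1 and RAD21 replicate 2 and 0.27 over 12840 peaks for CTCF replicate 2, and 0.16 and 0.15 with RAD21 replicate 1, against 0.67 over 20866 peaks between the CTCF replicates and 0.44 over 3862 peaks between the RAD21 replicates. These peaks share libraries and the local background, and the values are descriptions.

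Peak width also changed along the ranks, from a median of 410 bp in the strongest to 163 bp in the weakest decile of CTCF replicate 1, and from 364 to 153 bp in replicate 2, and a wide peak is easier to overlap. A rule that ignores width, added after the data were seen, counted a CTCF peak only when a RAD21 summit lay within 100 bp of its own summit. Averaged over the 4 pairs, the strongest decile then exceeded the weakest by 39.6 percentage points, compared with 41.9 ± 15.0 points (SD over the 4 pairs, which share lists) by overlap.

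CTCF peaks called in both CTCF replicates carried RAD21 far more often than those called in 1, also at equal rank. In CTCF replicate 1, 20866 peaks overlapped a peak of replicate 2 and 2567 did not, and RAD21 replicate 2 lay on 56.7% of the former and 14.8% of the latter. In CTCF replicate 2 the shares were 56.8% of 20792 and 21.1% of 4934 peaks. Peaks of a single list were indeed weak, with a median rank percentile of 15.0 in replicate 1 and 17.4 in replicate 2, where 100 is the strongest. The comparison was therefore repeated within deciles that held at least 20 peaks of each kind and averaged over them with equal weight. The peaks of both lists stayed ahead by 29.3 and 16.4 points for RAD21 replicate 2, in CTCF replicates 1 and 2. For RAD21 replicate 1 they stayed ahead by 6.23 and 7.74 points. They were ahead in each of the 7 usable deciles of CTCF replicate 1 and each of the 8 of CTCF replicate 2.

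At the 20724 sites formed by overlapping peaks of both CTCF lists, 17.8% carried RAD21 replicate 1, 56.9% carried replicate 2 and 17.6% carried both. No RAD21 peak was found at 8880 sites (42.8%). Only 47 sites had RAD21 in replicate 1 alone, and 8153 (39.3%) had it in replicate 2 alone. When these sites were cut into 5 equal groups by the lower of their 2 CTCF ranks, the share without any RAD21 peak grew from 24.0% in the strongest group to 65.7% in the weakest. The share with RAD21 in both replicates dropped from 30.7% to 6.13%.

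CTCF peaks close to gene starts carried RAD21 much less often than distal CTCF peaks of the same rank. Distance was measured from the CTCF summit to the nearest start (TSS) of a protein-coding transcript. Averaged over the 10 rank deciles, CTCF replicate 1 peaks at most 1 kb from a TSS carried RAD21 replicate 2 in 33.9% of cases (n = 2473), against 56.9% for those over 10 kb away (n = 14843). The corresponding averages were 32.6% and 54.7% in CTCF replicate 2 (n = 2638 and 16403). For RAD21 replicate 1 they were 8.28% and 19.3% in CTCF replicate 1, and 7.58% and 17.8% in CTCF replicate 2. The promoter class was lower in all 10 deciles in each of the 4 pairs. The mean difference over the pairs was -16.6 ± 6.89 points (SD).

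**Figure D2:**
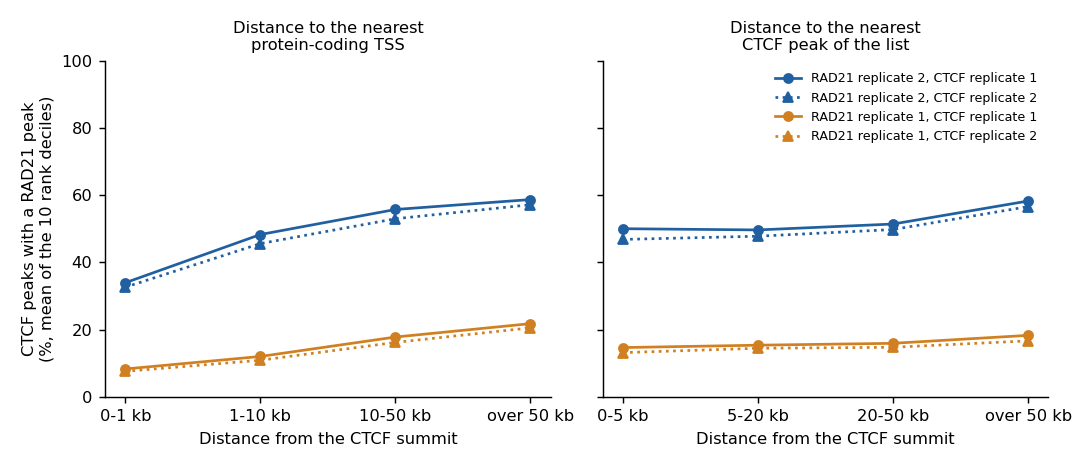
Share of CTCF peaks that carry a RAD21 peak (y axis, %, mean of the 10 CTCF rank deciles) by distance to the nearest protein-coding TSS (left) or to the nearest CTCF peak of the same list (right), both in 4 classes on the x axis. Blue is RAD21 replicate 2 and orange RAD21 replicate 1, with circles for CTCF replicate 1 and triangles for replicate 2; all 4 lines rise with TSS distance, while the lines for spacing are flatter.

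The gap was already present at the strongest CTCF sites. In the strongest decile of CTCF replicate 1, RAD21 replicate 2 lay on 48.6% of the promoter peaks and 84.5% of the distal peaks. In CTCF replicate 2 it lay on 53.0% and 86.3%. The RAD21 replicate 1 shares were 13.7% and 40.4%, and 14.8% and 41.4%. Strong CTCF peaks without RAD21 were therefore often promoter peaks. Of the 584 strongest-decile peaks of CTCF replicate 1 that lacked RAD21 replicate 2, 39.0% were at most 1 kb from a TSS, compared with 12.3% of the 1760 that had it. These shares were 37.5% of 550 and 11.5% of 2023 peaks in CTCF replicate 2.

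**Figure D3:**
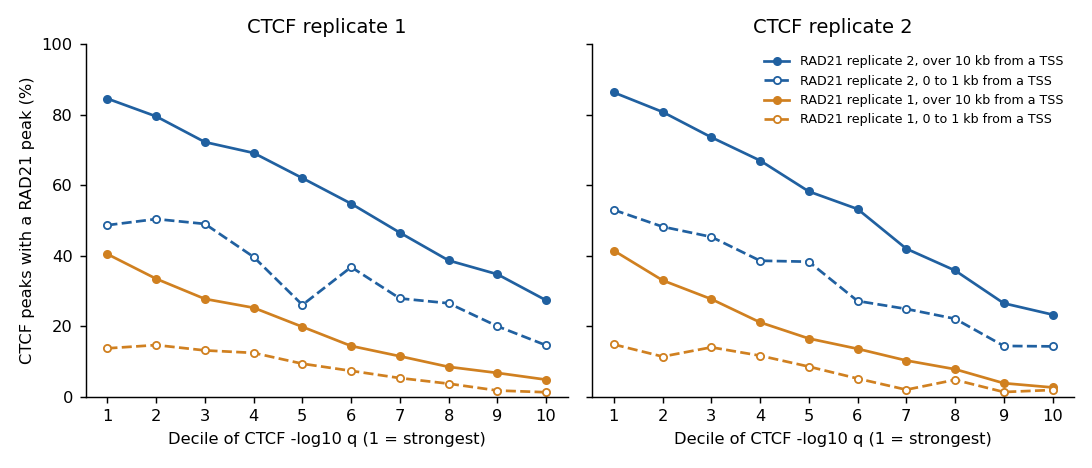
Share of CTCF peaks that carry RAD21 (y axis, %) by decile of CTCF -log10 q (x axis, 1 = strongest), for CTCF replicate 1 (left) and 2 (right). Filled circles are CTCF peaks over 10 kb from a protein-coding TSS and open circles those at most 1 kb away, blue for RAD21 replicate 2 and orange for replicate 1; the open circles lie below the filled circles of the same colour in all 10 deciles.

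The share continued to rise away from the start itself. Rank-averaged, RAD21 replicate 2 lay on 27.0% of CTCF replicate 1 peaks within 100 bp of a TSS, 33.8% of those at 100 to 300 bp and 38.9% of those at 300 to 1000 bp. The same 3 shares were 25.7%, 33.2% and 37.3% in CTCF replicate 2. With RAD21 replicate 1 they were 5.98%, 8.44% and 10.0% in CTCF replicate 1 and 4.56%, 7.92% and 9.31% in CTCF replicate 2. Beyond 50 kb it reached 58.7% and 57.2%.

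Promoter peaks are rich in G and C, with a median GC content of 59.7% around the summits of CTCF replicate 1, against 48.3% at distal peaks. Compared only among peaks with at least 55% GC, the promoter class was still lower by rank-averaged RAD21 replicate 2, at 29.9% against 49.2% in CTCF replicate 1 and 29.5% against 50.3% in CTCF replicate 2. Between 45 and 55% GC the shares were 38.1% against 54.2% and 36.7% against 51.8%. With RAD21 replicate 1 and at least 55% GC they were 6.78% against 18.8% and 6.73% against 19.6%. GC was not equal within these classes. At 55% or more, median GC was 64.2% at promoter peaks of both CTCF lists, against 57.2% and 57.7% at distal peaks. Between 45 and 55% it was 51.2% against 49.8% in both lists. The mean difference over the 4 pairs was -16.3 points in the upper class and -12.1 points in the middle class, against -16.6 points over all peaks. GC content itself went with RAD21 among distal peaks, but not in the same way in both RAD21 replicates. Distal peaks under 45% GC exceeded those with at least 55% by 15.2 and 10.0 points for RAD21 replicate 2, in CTCF replicates 1 and 2, whereas for RAD21 replicate 1 the differences were 0.60 and -2.76 points. These comparisons by GC were chosen after the data were seen. The part played by GC bias of the libraries was not tested.

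A motif match within 50 bp of the summit went with little difference in RAD21 once rank was held fixed. This class depends on where a list places its summits. In the strongest decile, where 99.9% of the peaks of each list overlapped the other list, 65.3% had a match in CTCF replicate 1 and 81.9% in CTCF replicate 2. Matches further from the summit were not counted, so these values do not show that the motif itself matters little. Rank-averaged, RAD21 replicate 2 lay on 52.5% of CTCF replicate 1 peaks with a motif and 51.7% of those without, and on 50.8% and 47.8% in CTCF replicate 2. For RAD21 replicate 1 the differences were -0.0036 and 0.080 points. The mean over the 4 pairs was 0.98 ± 1.42 points (SD), and it turned to -1.08 points with the custom genome lists without chromosomes 2 and 10 (1.00 points with the mm10 lists without them) and rose to 4.88 points when summits within 100 bp were required. The promoter gap was alike in peaks with a motif (-16.5 points) and without one (-16.6 points, means of the 4 pairs).

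Spacing between CTCF peaks had a smaller association, and one that depended on how rank was defined. CTCF peaks whose nearest CTCF neighbour in the list lay within 5 kb carried RAD21 replicate 2 in 50.0% of cases (n = 4678), rank-averaged, against 58.3% of those with no neighbour within 50 kb (n = 4965) in CTCF replicate 1. In CTCF replicate 2 the values were 46.9% and 56.6%. For RAD21 replicate 1 the differences were -3.63 and -3.51 points, with close-spaced peaks higher in 3 of the 10 deciles of each CTCF list. The mean difference over the 4 pairs was -6.29 ± 3.20 points (SD), and among peaks over 10 kb from a TSS it was -4.57 points. Among those distal peaks, close-spaced ones were higher in 6 and 3 of 10 deciles for RAD21 replicate 1, in CTCF replicates 1 and 2. For RAD21 replicate 2 they were higher in 1 decile of each CTCF list. Median GC over all peaks was 50.7% in the close class of both lists, against 47.3% and 46.8% in the wide class. GC was not held fixed. When deciles of fold enrichment replaced those of the q-value, the mean difference was only -0.80 points. Within 5 kb, the rank-averaged share at peaks with a neighbour at most 1 kb away minus that at 2 to 5 kb was -0.76 points for CTCF replicate 1 with RAD21 replicate 2 and between 0.72 and 2.01 points in the other 3 pairs.

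The direction of the neighbouring motif, examined after the data were seen, went with RAD21 at short range. Each CTCF peak with a motif was classed by the next motif peak that lies ahead, on the 3′ side, as facing it (opposite strand) or pointing the same way. With the neighbour at most 5 kb ahead, rank-averaged RAD21 replicate 2 was lower at facing pairs, with 35.6% against 48.2% in CTCF replicate 1 (averages over the 5 deciles with at least 20 peaks of each class, of 188 and 356 peaks in all) and 34.7% against 48.6% in CTCF replicate 2 (n = 392 and 679). For RAD21 replicate 1 the shares were 7.76% against 12.4% and 9.85% against 11.5%. From 5 to 20 kb those of RAD21 replicate 2 were 37.7% against 46.8% and 35.0% against 43.1%. Over 50 kb facing peaks were slightly higher, with 58.0% against 54.8% and 58.0% against 56.3%. Restricted to peaks over 10 kb from a TSS, facing neighbours within 20 kb still had less RAD21 replicate 2, by 44.1% to 53.3% and by 40.1% to 51.2%. For RAD21 replicate 1 the same comparison gave 13.5% to 15.1% and 12.1% to 14.4%, with facing peaks higher in 5 and 4 of the 10 deciles.

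The share of CTCF peaks with RAD21 also differed between chromosomes, from 45.6% on chromosome 5 to 59.0% on chromosome 18 for CTCF replicate 1 and RAD21 replicate 2. Chromosomes 5 and 18 were the lowest and the highest in all 4 pairs.

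The summits of the 2 proteins lay close together. For CTCF peaks with RAD21, the median distance between summits, regardless of side, was 53 bp for CTCF replicate 1 with RAD21 replicate 1, 46 bp with RAD21 replicate 2, and 49 and 39 bp for CTCF replicate 2. The CTCF replicates differed from each other by a median of 41 bp and the RAD21 replicates by 49 bp, so of the 4 distances between proteins only the 53 bp of the first pair exceeded both. Along the chromosome there was no preferred side, with medians from -1 to 0 bp.

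A preferred side appeared when the positions were read along the CTCF motif. RAD21 summits lay 3′ of CTCF summits by a median of 22 and 13 bp in CTCF replicate 1 (n = 2100 and 6629 peaks, RAD21 replicates 1 and 2) and by 21 and 12 bp in CTCF replicate 2 (n = 2746 and 9123). The sign followed the strand. For CTCF replicate 1 and RAD21 replicate 1, the median shift in chromosome coordinates was 18 bp at motifs on the plus strand and -27 bp at motifs on the minus strand. Between CTCF replicate 1 and RAD21 replicate 2, 62.0% of the non-zero shifts pointed 3′. The spread was wide, with quartiles of -16 and 52 bp for that pair.

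The search for the motif is centred on the CTCF summit, which holds that list near the motif by construction. A comparison free of this, added after the data were seen, placed the motif by 1 CTCF list and compared RAD21 with the other CTCF list. RAD21 replicates 1 and 2 then lay 3′ of CTCF replicate 2 by a median of 13 bp (n = 2073) and 7 bp (n = 6453). They lay 3′ of CTCF replicate 1 by 19 bp (n = 2686) and 11.5 bp (n = 8490). At the same peaks the CTCF list that did not place the motif was displaced from the one that did by 5, 4, 0 and 1 bp. The shift between proteins was thus the larger in each of the 4 comparisons, and CTCF replicate 2 leaned 3′ of CTCF replicate 1 only where CTCF replicate 1 had placed the motif.

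At 1486 sites all 4 lists had a peak and both CTCF lists gave the same motif. There the median summit stood 0 bp from the motif centre for CTCF replicate 1 and 1 bp for CTCF replicate 2, and 18 and 13 bp to the 3′ side for RAD21 replicates 1 and 2. RAD21 summits fell most often in 2 zones. In RAD21 replicate 2, 33.4% lay within 15 bp of the motif centre, 37.8% lay 25 to 95 bp to the 3′ side and 12.7% lay that far on the 5′ side. In RAD21 replicate 1 the shares were 24.4%, 34.7% and 17.1%. Between the zones the number of summits dipped in both RAD21 lists. In bins of 10 bp centred 0, 20 and 50 bp 3′ of the motif centre, RAD21 replicate 2 had 16.1%, 5.85% and 7.60% of its summits, and for bins centred at 0, 20 and 60 bp RAD21 replicate 1 had 11.6%, 3.84% and 6.39%. The low bin at 20 bp was not particular to RAD21. In bins centred at 10, 20 and 30 bp, CTCF replicate 1 had 15.3%, 7.74% and 9.69% of its summits. CTCF replicate 2 had 17.3%, 9.02% and 9.22%. Both RAD21 summits lay 3′ of both CTCF summits at 463 sites (31.2%), and both lay 5′ at 152 (10.2%). The outer edges of the peaks moved the same way. The RAD21 peaks reached further on the 3′ side of the motif than on the 5′ side by a median of 40 and 38 bp, and the CTCF peaks by 7 and 13 bp.

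**Figure D4:**
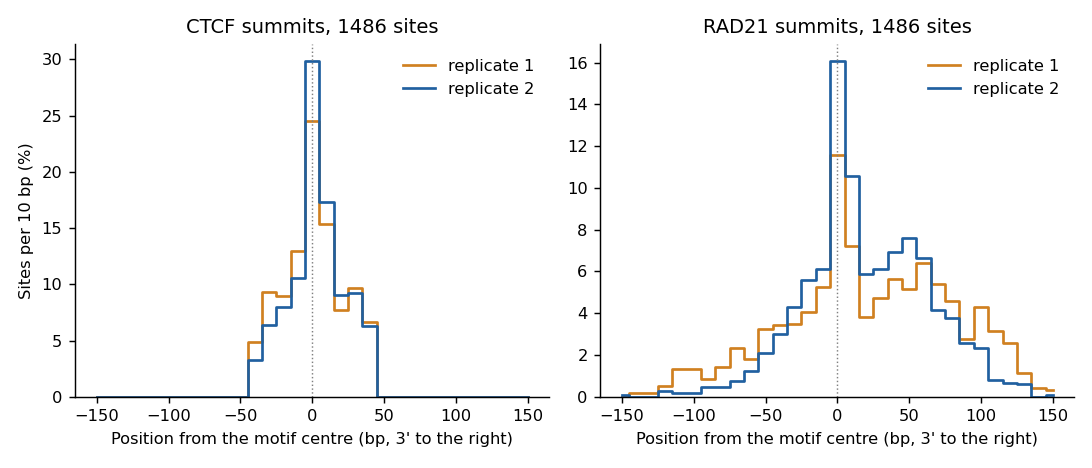
Summit positions relative to the centre of the CTCF motif at the 1486 sites with all 4 peaks (x axis, bp, 3′ to the right; y axis, % of sites per 10 bp), for CTCF (left) and RAD21 (right), orange for replicate 1 and blue for replicate 2. CTCF summits are limited to the search range around the motif, while RAD21 summits have a central peak and a second, broader group on the 3′ side.

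When the motif was placed by CTCF replicate 1 alone, with no such limit on the other lists, 35.0% of RAD21 replicate 2 summits fell 25 to 95 bp 3′ of it and 16.4% the same distance 5′ (n = 6629). For CTCF replicate 2 the shares were 29.2% and 16.3% (n = 10980). When it was placed by CTCF replicate 2, they were 35.8% and 15.6% for RAD21 replicate 2 (n = 9123) and 30.3% and 23.7% for CTCF replicate 1 (n = 14202). RAD21 replicate 1 had 34.5% and 17.3% with the motif from CTCF replicate 1 (n = 2100), and 35.4% and 17.2% with CTCF replicate 2 (n = 2746). The excess on the 3′ side was therefore present in CTCF lists too and greater in the RAD21 lists. The sets of peaks differ, however. RAD21 shares cover motif peaks that carry RAD21, and CTCF shares cover all motif peaks that overlap the other CTCF list.

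The median shift was smaller at promoters and showed no steady order with rank. The median 3′ shift at peaks at most 1 kb from a TSS was 14 bp (n = 117) for CTCF replicate 1 with RAD21 replicate 1, against 23 bp at distal peaks (n = 1570). With RAD21 replicate 2 it was 8 bp (n = 487) against 14 bp (n = 4499). For CTCF replicate 2 it was 14 against 22 bp with RAD21 replicate 1 (n = 148 and 2059) and 8 against 12 bp with RAD21 replicate 2 (n = 620 and 6270). Across the 10 deciles of CTCF replicate 2, the median 3′ shift of RAD21 replicate 2 ranged from 8 to 19 bp. For the same pair it was 11 bp at peaks with a facing neighbour ahead and 12 bp at those with a neighbour in the same direction.

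Individual sites were picked by CTCF rank, and not all of them followed the promoter gap. The strongest sites without RAD21 in either replicate were 2 promoters and 1 intergenic site. The site at the promoter of Sh3gl1, which encodes an endophilin of the endocytic membrane, lies 120 bp upstream of its start and ranked 10 and 6 in the CTCF lists, with folds of 15.9 and 20.9. Its nearest RAD21 summits were 123135 and 60222 bp away in RAD21 replicates 1 and 2. The site 51 bp upstream of Dnajc11, a mitochondrial DnaJ protein gene, ranked 12 and 17, with RAD21 no nearer than 13048 bp. The site 15224 bp upstream of Smug1, a uracil-DNA glycosylase gene, ranked 35 and 13, and RAD21 summits stood 3746 and 3691 bp from it. All 3 carry the motifs printed above.

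The 3 strongest sites with RAD21 in both replicates were of another kind and none matched the motif. The first, chr9:35305148-35305583 within an intron of Gm33838, a gene for a long non-coding RNA, ranked 1 in all 4 lists. The others lie in the neighbouring genes Gm10800 (chr2:98666197-98667355) and Gm10801 (chr2:98662248-98662961) and ranked between 2 and 9 in the 4 lists. Gm10800 and Gm10801 are annotated as protein-coding, and these 2 sites lie 160 and 463 bp from a TSS. By distance both belong to the promoter class, although they carry RAD21. Repeat-masked bases made up 79.1%, 81.6% and 67.1% of these 3 sites, against 0 to 36.4% at the 9 sites printed above. The nearest RAD21 summits were at most 17 bp from those of CTCF. Whether these peaks reflect the antibodies or the repeats was not tested. Leaving out the 100 strongest peaks of each CTCF list moved the share with RAD21 from 33.2% to 33.1%, as the mean of the 4 pairs.

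The next sites, chosen after these values were seen, were the 3 strongest with a motif and RAD21 in both. One lies in an intron of Gm47882 on chromosome 13 and ranked 38 and 44 for CTCF and 519 and 163 for RAD21, whose summits stood at -6 and 46 bp from the motif centre. One lies 34748 bp from the start of Enah, a regulator of actin filaments, ranked 49 and 3 for CTCF, and has RAD21 at 50 and -4 bp. The third lies in an intron of Ethe1, which encodes a mitochondrial sulfur dioxygenase, and has RAD21 at -6 and 0 bp. The RAD21 replicates thus differed in side at the first 2 of these sites.

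At the other extreme, RAD21 in both replicates also lay on sites that were near the bottom of 1 CTCF list, though not of the other. The site 11541 bp upstream of Tex50 ranked 18164 of 23433 and 25712 of 25726 for CTCF, yet 2040 and 12075 for RAD21. The site 22501 bp upstream of Thnsl2 ranked 16575 and 25710 for CTCF and 2228 and 3039 for RAD21. The site 677483 bp from the start of Kcnj3, a potassium channel gene, ranked 23350 and 15020 for CTCF and 1565 and 2996 for RAD21.

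Around limb genes the pattern was close to that of all genes. Of the 15739 sites called in both CTCF lists and within 50 kb of a protein-coding TSS, 55.1% had RAD21 replicate 2 and 16.2% RAD21 replicate 1. Of 37 limb patterning genes, 28 had such a site, and 40 of their 64 sites (62.5%) had RAD21 replicate 2 and 10 (15.6%) had RAD21 replicate 1. The signalling gene Shh, which patterns the digits from the posterior margin, had 1 site, with RAD21 in both replicates. Lmbr1, whose intron holds the limb enhancer of Shh, had 2 sites, both with RAD21 replicate 2. Hoxd13, a homeobox gene of the digits, had the most sites of the list, 7, of which 4 had RAD21 replicate 2 and 2 had both. The homeobox gene Pitx1, which specifies hindlimb, had 2 CTCF sites and no RAD21 at either. Gli3, Ptch1, Fgf10, Bmp4 and Tbx5 had no CTCF site within 50 kb that both lists shared.

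Among 17 genes for CTCF, cohesin and their partners, 16 had sites, and 18 of their 38 sites (47.4%) had RAD21 replicate 2. Of these sites 34.2% were at most 1 kb from a TSS, against 13.8% of all sites near genes and 10.9% of those near limb genes. Ctcf itself had 7 sites, 2 with RAD21 replicate 2. Wapl, which releases cohesin from chromatin, had 2 sites, both with RAD21 replicate 2. Nipbl, the cohesin loader, had 2 sites, neither with RAD21. The list is short, and a difference from all genes cannot be read from it.

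The 4 Hox clusters held 21 sites between them. Of all 20724 sites called in both CTCF lists, 56.9% carried RAD21 replicate 2 and 17.8% carried RAD21 replicate 1. With 3 to 8 sites per cluster, a difference from these shares or between clusters cannot be read. HoxA had 5, of which 3 carried RAD21 replicate 2 and 0 carried RAD21 replicate 1. Its Hoxa5 site, 16 bp from the TSS, and its Hoxa7 site, 6 bp from the TSS, both had RAD21 replicate 2, so a promoter position did not preclude RAD21. HoxB had 8 sites, 5 with RAD21 replicate 2 and 3 with both. All 3 HoxC sites had RAD21 replicate 2 and none replicate 1. In HoxD, RAD21 in both replicates lay at the sites near Hoxd12 and Hoxd3. RAD21 replicate 2 alone lay near Hoxd8, and the sites near Hoxd11 and Hoxd10 had no RAD21 peak.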

How the data were processed

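CTCF and RAD21 peaks of TgN(38-40) E12.5 limbs were used. For every replicate the authors mapped reads to mm10 and ran MACS2. MACS2 2.1.1.20160309, Bowtie2 2.3.4.1 and cutadapt 1.16 are among the tools in the submitters' processing notes. The control used for calling is not given in the sources used here, and read numbers are unknown. The deposited lists give each peak a fold enrichment, a ratio to the local expectation, the -log10 p-value, the -log10 q-value and a summit offset, all computed by the authors. The inputs have no peak list, and a wild-type RAD21 list was not used.

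Ranks came from the -log10 q-value within a list. Overlap was at least 1 bp, and summit differences used the nearest overlapping peak. Rank-averaged shares are the mean over 10 deciles, limited to deciles with at least 20 peaks of each class for differences. Each value is given per pair of lists, and SDs are over 4 pairs. Sequence was GRCm38, with its gene annotation. The motif model was learned from 2000 peaks of CTCF replicate 2 after the 100 strongest, and its score threshold was set on flanking sequences of that list. Named sites are the 3 strongest without RAD21, and the 3 strongest and 3 weakest with RAD21 in both replicates, on autosomes other than 18. Genes named from the lists are those with the most sites, with none, or with RAD21 replicate 2 at all or no sites. Members and gene lists were chosen with earlier results of these data known. GC content, neighbouring motifs, motif-free references, edges, chromosomes and the Hox clusters were examined after the data were seen. The motif search, overlaps, rank averages and shifts were tested on simulated data. Analyses ran in Python 3.11.15 with matplotlib 3.10.9, pysam 0.24.0, scipy 1.17.1, pandas 2.3.3 and numpy 2.4.6. Alternatives were stricter RAD21 peaks, other overlap rules, fold deciles, the custom genome, leaving out a replicate, other gene starts, merged lists for spacing and a stricter motif score.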

Additional observations from a re-analysis of the deposited data

How the results depend on the processing

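Of 89 alternative values of the 8 results, 88 kept their direction and 86 lay within 1 SD of the 4 pairs. That SD is wide because the RAD21 lists differ in length. The exceptions were the motif difference, 0.98 points, which was -1.08 points with the custom genome lists without chromosomes 2 and 10 and 4.88 points with RAD21 summits within 100 bp, and the spacing difference, -6.29 points, which was -0.80 points with deciles of fold enrichment. The cause was not tested. Some of the 89 values could not have failed 1 of these 2 criteria. Those that leave out 1 replicate are means of 2 of the same 4 pairs and cannot lie beyond 1 SD. The motif difference, being smaller than its SD, could still have changed direction among them. The share and the summit distance cannot be negative, so they could not change direction. Leaving out each replicate in turn gave shares of 15.4 to 51.0%, decile differences of 29.3 to 54.6 points, replicate differences of 6.99 to 22.8, TSS differences of -22.5 to -10.6, spacing differences of -9.01 to -3.57 and motif differences of 0.038 to 1.92 points, a median summit distance of 42.5 to 51 bp and a motif shift from between 12 and 13 bp up to 21.5 bp. Of these alternatives 16 were chosen after the data were seen. No paired analysis was possible because the values come from no test, and nothing states that replicate numbers of the antibodies mark shared embryos. A site without a peak is below the threshold of its list, which is not the same as unbound.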
